A study of Caenorhabditis elegans with 6 samples.

Results

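The small heat-shock proteins of Caenorhabditis elegans were followed here in whole adult worms raised with or without tyrosol, a phenolic alcohol of olive oil. A list of 10 genes was taken by symbol from the array annotation: hsp-16.2, hsp-16.41, hsp-16.1, hsp-16.11, hsp-16.48, hsp-12.3, hsp-12.6, hsp-25, hsp-43 and sip-1. Of these, 7 had a probe set that names them alone, out of 17118 genes measured that way. The other 3 members, hsp-16.1, hsp-16.11 and hsp-16.48, were read on probe sets assigned to near-identical genes together and have no value of their own. Where a gene had several probe sets, as only sip-1 did among the members, the one with the highest mean over the 6 arrays stands for it.

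Both groups carried the fer-15(b26) mutation, which leaves sperm unable to fertilise at high growth temperatures, so that cultures of ageing adults stay free of offspring. Eggs were placed at 25 °C on agar with 250 µM tyrosol (3 arrays) or with the vehicle (control, 3 arrays), and the plates of both groups held 0.1% ethanol. A maintenance temperature of 20 °C is also given for both groups, beside the 25 °C at which they were raised. Worms were exposed until day 4 of adulthood, when RNA of whole worms was taken. Nothing in the labels says whether replicates were separate cultures, and the p-values therefore reflect a spread between arrays that may be technical. In whole worms, more cells of a type and more RNA per cell cannot be told apart.

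Small heat-shock proteins share an alpha-crystallin domain and bind unfolding proteins without ATP, holding them until HSP70 machines can refold them. In C. elegans the hsp-16 genes are nearly silent in unstressed worms and are switched on by heat through the heat-shock factor HSF-1, with DAF-16 of the insulin pathway contributing. They lie in divergent pairs, and a green fluorescent reporter of hsp-16.2 is a widely used predictor of remaining lifespan in this worm. Other family members are not heat-inducible, and are tied to particular tissues or stages.

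Values are log2 expression after RMA, the normalisation the authors applied, so a difference of 1 is a doubling. In this table the 6 array medians lay between 2.57 and 2.61. The arrays resembled each other, with a mean correlation per array of 0.991 to 0.995 over all probe sets. Tyrosol replicate 2 stood apart, with an SD of deviations from its group mean of 0.21, against 0.15 for each of the other tyrosol arrays and 0.11 to 0.16 for the control arrays. Added bacterial poly-A transcripts read 1.38 higher at their 3' end than at their middle on that array, against 0.84 and 0.94 on the other tyrosol arrays and 0.78 to 1.02 on the control arrays. Markers of intestine and oocytes were present. The yolk protein gene vit-5 of the intestine averaged 12.42 in tyrosol worms and 12.47 in control worms. The yolk receptor gene rme-2 of oocytes averaged 9.77 in tyrosol worms and 9.75 in control worms. These 2 genes do not show that tissue make-up was equal. Of 12 oocyte markers 8 had a difference below 0, and of 10 intestine markers 8. Their median differences were -0.098 and -0.055, and that of 11 sperm markers was 1.21.

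Across the family, the probe sets of the hsp-16 members, hsp-12.3 and hsp-25 read higher in every tyrosol array than in any control array, while sip-1 and hsp-43 differed by less than 0.1. None of the 7 genes with their own probe set was called by the rank product, the test the study names, at a false discovery rate under 0.05 over all 9 differences between a tyrosol and a control array (0 of 7 higher and 0 of 7 lower). Over the 3 same-numbered pairs alone it called 1 of 7, hsp-16.2. Beside these counts, 0.865% of all genes were called higher and 0.0234% lower. Limma also called 0 of the 7 after adjustment, against 0.339% of all genes called higher and 0.0117% lower. At an unadjusted limma p under 0.05, 4 of 7 were higher, against 4.55% of all genes, and 0 of 7 were lower, against 2.66%. All tyrosol values lay above all control values in the same 4 genes, against 6.92% of all genes, and below them in 1, hsp-12.6, against 6.78%. Over the 7 genes the median log2 difference was 0.25, and over all 17118 genes it was -0.017.

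**Figure D1:**
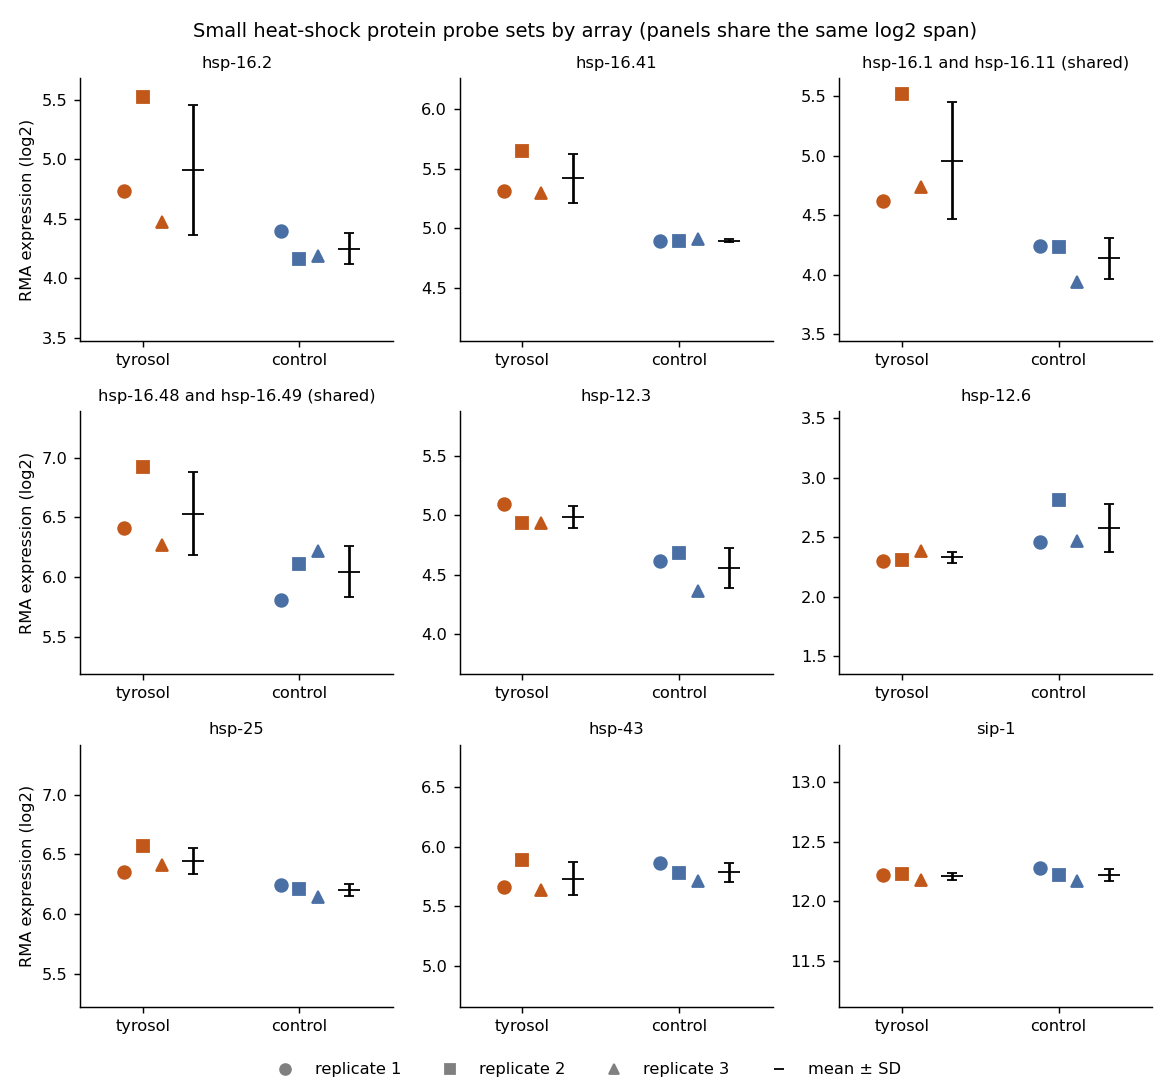
Log2 RMA expression of 9 probe sets on each of the 6 arrays, with tyrosol worms on the left and control worms on the right of each panel; symbols mark the replicate number and bars give the mean ± SD (n = 3 each). The 4 probe sets of hsp-16 members show no overlap between groups and their highest value in tyrosol replicate 2, whereas sip-1 stays between 12.17 and 12.28.

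Among the heat-inducible genes, hsp-16.2 read 4.73, 5.52 and 4.47 in tyrosol replicates 1, 2 and 3, against 4.40, 4.16 and 4.19 in control replicates 1, 2 and 3. The groups did not overlap, but tyrosol replicate 3 exceeded the highest control value by little and tyrosol replicate 2 stood far above the rest. The tyrosol mean was 4.91 ± 0.55 and the control mean 4.25 ± 0.13 (SD, n = 3 each), a difference of 0.66 (SE 0.24, 95% interval 0.10 to 1.21), or 1.58-fold. The estimated false discovery rate of the rank product was 0.066, and limma's adjusted p was 0.57. Over the 3 same-numbered pairs alone hsp-16.2 was called (false discovery rate 0.035), with pair differences of 0.34, 1.36 and 0.28. Without tyrosol replicate 2 the difference was 0.35 and the false discovery rate 0.70. Without other single arrays the rate ran from 0.054 (control replicate 1) to 0.21 (tyrosol replicate 1, where the difference was 0.75).

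Its neighbour hsp-16.41, the next protein-coding gene in the RefSeq annotation and the divergent partner of hsp-16.2, had the smallest control SD of the members. It read 5.31, 5.65 and 5.29 in tyrosol replicates 1, 2 and 3, against 4.89, 4.89 and 4.91 in the control replicates. Every tyrosol array was higher than every control array, and the SD of the control arrays, 0.0087, was smaller than that of all but 0.98% of probe sets. The difference was 0.52 (SE 0.12, 95% interval 0.25 to 0.79), 1.43-fold, with a rank product false discovery rate of 0.14 and a limma adjusted p of 0.18. It lay between 0.40 and 0.58 when single arrays were left out, the lowest being without tyrosol replicate 2.

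The other hsp-16 members lie together with hsp-16.49 in RefSeq, in the order hsp-16.1, hsp-16.48, hsp-16.49 and hsp-16.11, and each near-identical couple shares a probe set. The probe set of hsp-16.1 and hsp-16.11 read 4.62, 5.52 and 4.74 in tyrosol replicates 1, 2 and 3, against 4.24, 4.23 and 3.94 in the control replicates. It was the one hsp-16 probe set that passed: it rose by 0.82 (SE 0.23, 95% interval 0.30 to 1.34), 1.76-fold, with a rank product false discovery rate of 0.014. Among all probe sets 0.927% were called higher. Limma's adjusted p was 0.33, and 0.13 with the replicate number as a block. Which of the genes the signal comes from cannot be told apart. The call was lost without tyrosol replicate 2, where the difference was 0.54, and without tyrosol replicate 3, where it was 0.93; it held without any other 1 array.

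The probe set of hsp-16.48 and hsp-16.49, whose suffix marks probes shared with other sequences, read 6.41, 6.92 and 6.27 in tyrosol replicates 1, 2 and 3, against 5.81, 6.11 and 6.22 in the control replicates. The groups did not overlap, though tyrosol replicate 3 and control replicate 3 differed by 0.049. The difference was 0.49 (SE 0.18, 95% interval 0.065 to 0.91), with a rank product false discovery rate of 0.24 and a limma adjusted p of 0.59. Without tyrosol replicate 2 it was 0.29.

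The 4 probe sets of the hsp-16 members had no overlap between groups and tyrosol replicate 2 on top. Their control means ran from 4.14 to 6.05, above the array medians, although these genes are known as nearly silent without stress. The reason was not tested. The groups overlapped for hsp-16.20 and hsp-16.21, which are no members. These 2 genes read 1.07 to 1.59, below the array medians of 2.57 to 2.61, so their overlap says little about a response. Of all probe sets, 20.4% had their highest value on tyrosol replicate 2, and 3.05% combined this with all tyrosol values above all controls. All tyrosol values lay above all controls in 6.75%, whichever array was highest. The combined pattern was picked after the hsp-16 values were seen. The 4 probe sets belong to related genes and may not be separate signals. The poly-A transcripts of tyrosol replicate 2 had the largest 3' difference of the 6 arrays, and the part of this array in the hsp-16 values was not tested. Without tyrosol replicate 2 the differences were 0.35, 0.40, 0.54 and 0.29 for hsp-16.2, hsp-16.41, the hsp-16.1 couple and the hsp-16.48 couple, and none was called. As the groups did not overlap, leaving out an array could not bring these differences to 0 or below. The spread of hsp-16.2 among tyrosol arrays was larger than that of 98.1% of probe sets, and among control arrays larger than that of 55.4%.

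**Figure D2:**
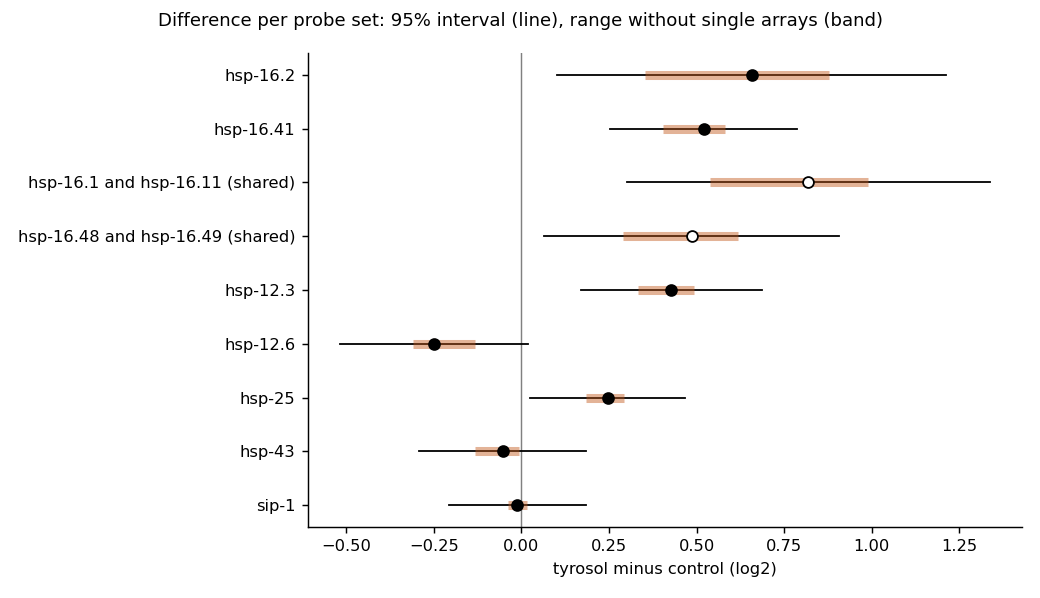
Difference between tyrosol and control worms on the log2 scale for 9 probe sets; points are the means, thin lines limma's 95% intervals, bands the range when each of the 6 arrays is left out, and open points probe sets shared by near-identical genes. Intervals of the 4 hsp-16 probe sets, hsp-12.3 and hsp-25 lie above 0, and those of hsp-12.6, hsp-43 and sip-1 include it.

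The short members hsp-12.3 and hsp-12.6 are neighbours in RefSeq, and their proteins carry little beyond the alpha-crystallin domain. For hsp-12.3 the tyrosol replicates read 5.09, 4.93 and 4.93, against 4.62, 4.68 and 4.37 in the control replicates. The groups did not overlap, and here tyrosol replicate 2 was not above the others. The difference was 0.43 (SE 0.11, 95% interval 0.17 to 0.69), 1.35-fold, with a rank product false discovery rate of 0.29 and a limma adjusted p of 0.30. It was 0.45 without tyrosol replicate 2 and ran from 0.33 to 0.49 without single arrays.

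The neighbouring hsp-12.6, known as a target of DAF-16 that is high in long-lived insulin-pathway mutants, lay on the other side. It read 2.30, 2.31 and 2.38 in tyrosol replicates 1, 2 and 3, against 2.46, 2.81 and 2.47 in the control replicates. The groups did not overlap, but control replicate 2 was set well above the other controls. The difference was -0.25 (SE 0.12, 95% interval -0.52 to 0.020; rank product false discovery rate 0.93, limma adjusted p 0.72), and -0.13 without control replicate 2. Its values lay close to the median of all probe sets, so this signal is weak, and the difference between the hsp-12 genes in their response was not tested.

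Of the members tied to tissues, hsp-25 encodes a protein of muscle dense bodies and M-lines. It read 6.35, 6.57 and 6.41 in tyrosol replicates 1, 2 and 3, against 6.24, 6.21 and 6.14 in the control replicates. The groups did not overlap, and the difference was small, at 0.25 (SE 0.096, 95% interval 0.026 to 0.47), or 1.19-fold. The rank product false discovery rate was 0.89 and limma's adjusted p 0.62. The only probe set of hsp-25, like that of hsp-43, has a suffix for shared probes. Of 12 body wall muscle markers 10 had a difference above 0 and 2, unc-54 and unc-95, below it. All tyrosol values lay above all controls in 6 of the 12, against 6.92% of all genes, 4 were higher at an unadjusted limma p under 0.05, against 4.55%, and 0 were called by the rank product or by limma. Their mean level was 5.21 to 5.29 in tyrosol arrays and 5.08 to 5.11 in control arrays, with a median difference of 0.15; their part in the value of hsp-25 was not tested.

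The longer member hsp-43, which is made without heat stress, read 5.66, 5.89 and 5.64 in tyrosol replicates 1, 2 and 3, against 5.87, 5.78 and 5.71 in the control replicates. The groups overlapped, with a difference of -0.054 (95% interval -0.29 to 0.19), so these arrays cannot tell a small change in either direction from none.

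The gene sip-1 encodes a small heat-shock protein of oocytes and embryos. It read 12.22, 12.23 and 12.18 in tyrosol replicates 1, 2 and 3, against 12.28, 12.22 and 12.17 in the control replicates. The groups overlapped, and the difference was -0.011 (SE 0.086, 95% interval -0.21 to 0.19). Its other probe set read 11.91 to 12.02 in tyrosol worms and 11.99 to 12.04 in control worms, a difference of -0.063. These signals lay close to the highest value of the table, 12.53. Of 12 oocyte markers 0 were called by the rank product or limma, and 0 had an unadjusted limma p under 0.05; their mean level was 9.51, 9.03 and 9.50 in tyrosol replicates 1, 2 and 3, against 9.37 to 9.49 in control arrays.

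The rest of the heat-shock system was read from 5 gene lists with 48 measured genes, of which the rank product and limma each called 0. At an unadjusted limma p under 0.05 stood 2 of the 48, smk-1 and unc-23, both higher with tyrosol, a share near the 4.55% of all genes higher at that threshold. Other alpha-crystallin genes had 0 of 7 called in either direction, with a median difference of 0.055. Their largest differences were those of hsp-12.2, at 0.28 (SE 0.19) with overlapping groups and 0.098 to 0.49 without single arrays, and hsp-12.1, at 0.20 (SE 0.093). This gene read 1.54 to 1.68 in tyrosol worms and 1.32 to 1.49 in control worms, far below the median of all probe sets. The gene hsp-17 differed by 0.055, and hsp-16.20 and hsp-16.21, also named as hsp-16 genes, by 0.079 and 0.0065 at levels under 1.6.

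Among regulators 0 of 12 were called, and the median difference was 0.025. The heat-shock factor gene hsf-1 was measured on a probe set whose suffix marks probes shared with other sequences. It read 6.01, 5.25 and 5.83 in tyrosol replicates 1, 2 and 3, against 5.94, 5.89 and 5.84 in the control replicates. Its difference of -0.19 (SE 0.18) came with 1 low array, tyrosol replicate 2, on which the hsp-16 probe sets were highest; without that array it was 0.029. The FOXO factor gene daf-16 differed by -0.13 (SE 0.096). The largest differences of this list were those of smk-1, a cofactor of DAF-16, at 0.33 (SE 0.12, limma adjusted p 0.54), and skn-1, the oxidative stress factor gene, at 0.23 (SE 0.16).

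Among cytosolic HSP70, HSP90 and HSP110 genes 0 of 6 with their own probe set were called, with a median difference of 0.012. The inducible hsp-70 read 2.75, 2.94 and 1.78 in tyrosol replicates 1, 2 and 3, against 2.32, 2.20 and 2.57 in the control replicates, a difference of 0.13 (SE 0.27) with overlapping groups. The HSP90 gene hsp-90, listed under its older name daf-21, differed by 0.080 (SE 0.10). The largest differences were those of the constitutive HSP70 gene hsp-1, at -0.32 (SE 0.22), which was -0.039 without tyrosol replicate 2, and of hsp-110, at 0.21 (SE 0.22), which was -0.075 without control replicate 2.

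One further HSP70 couple on the list, F44E5.4 and F44E5.5, heat-inducible genes of near-identical sequence, was read on 2 shared probe sets and is described after its values were seen. On one it read 6.61, 6.92 and 6.35 in tyrosol replicates 1, 2 and 3, against 5.62, 5.48 and 5.81 in the control replicates. On the other it read 5.24, 5.57 and 5.11 in tyrosol replicates, against 4.58, 4.03 and 4.26 in the control replicates. Every tyrosol value lay well above every control value on both, and both rose, by 0.99 (SE 0.16) and 1.02 (SE 0.17), about 2.0-fold. The rank product gave false discovery rates of 0.0024 and 0.0018, and limma adjusted p of 0.053 and 0.064. Both calls held without each single array, and both were lost without the 2 arrays of replicate 2 together (differences 0.77 and 0.75, false discovery rates 0.10 and 0.11).

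**Figure D3:**
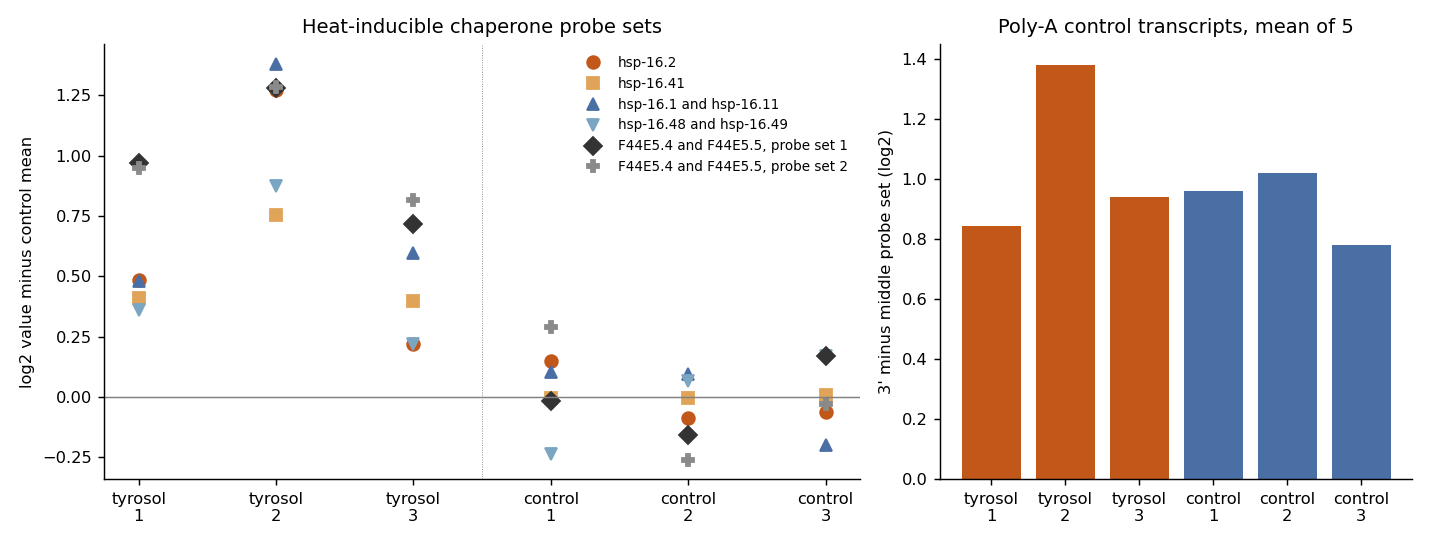
Left, log2 values minus the control mean on each array for the 4 hsp-16 and 2 F44E5.4 and F44E5.5 probe sets, tyrosol arrays left of the dotted line and control arrays right of it; right, the mean difference between 3' and middle probe sets of 5 poly-A control transcripts on the same arrays. Tyrosol replicate 2 is highest in all 6 probe sets and in the control transcripts, at 1.38.

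Co-chaperones of HSP70 and HSP90 had 0 of 13 called and a median difference of 0.046. The largest were cdc-37, an HSP90 co-chaperone gene for kinases, at -0.49 (SE 0.27), and unc-23, a BAG-domain gene of muscle attachment, at 0.46 (SE 0.18). Tyrosol replicate 2 was the lowest tyrosol array for both: cdc-37 read 4.49 there, against 5.62 and 5.52 on the other tyrosol arrays, and without it differed by -0.13, while unc-23 differed by 0.67. Chaperones of the endoplasmic reticulum and the mitochondria had 0 of 10 called and a median of -0.037. Their largest differences were those of the mitochondrial chaperonin gene hsp-60, at -0.31 (SE 0.19), and the reticulum HSP70 gene hsp-3, at -0.21 (SE 0.15), which without tyrosol replicate 2 were -0.077 and -0.041.

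**Figure D4:**
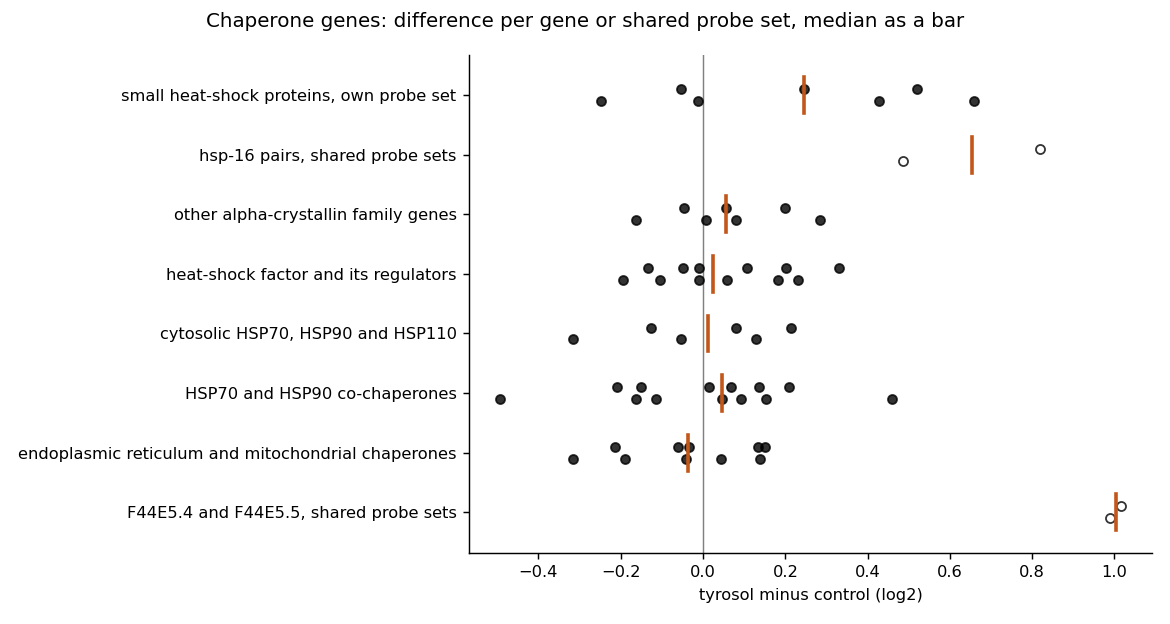
Difference between tyrosol and control worms on the log2 scale for each gene of 5 chaperone and regulator lists, for the 7 small heat-shock protein genes with their own probe set and for shared probe sets (open points), with the median of each row as a bar. The medians of the 5 lists lie between -0.037 and 0.055, beside 0.25 for the 7 small heat-shock protein genes.

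Other tissues were read from marker lists. Of 11 sperm markers 8 were called higher, against 0.865% of all genes. The mean level of the 11 was 4.33, 4.16 and 4.43 in tyrosol replicates 1, 2 and 3, against 2.97, 3.56 and 3.11 in the control replicates. All those called except ssp-16 were read on probe sets whose suffix marks probes shared with other sequences, so they may not be separate signals. The markers spe-9, spe-44 and gsp-4 were not called. Of 10 epidermis markers 2 were called higher, wrt-10 and noah-1, with limma adjusted p of 0.073 and 0.096. Over the 6 omissions of a single array, the call held in 2 for wrt-10 and in 3 for noah-1. Of 10 intestine markers 0 were called by the rank product or limma, with a median difference of -0.055. At an unadjusted limma p under 0.05 stood 1, elt-2, at -0.29, against 2.66% of all genes lower. All tyrosol values lay below all controls in 3 of the 10, against 6.78% of all genes. The part of sperm, epidermis or intestine in the hsp-16 values was not tested.

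Genes whose profile was most like that of a member were found by the smallest root mean square difference between profiles centred on their own mean over the 6 arrays. For hsp-16.2, whose own profile had a root mean square of 0.46, these were T09B4.8 at 0.13, the homeobox gene ceh-20, the p38 pathway kinase gene sek-1, fbxc-25 and Y46G5A.7, the last 4 at 0.16 to 0.17. Of these the rank product called ceh-20, by 0.75. For hsp-12.3 they were the fatty acid synthase gene fasn-1, hlb-1, dhcr-7, the peroxidasin gene pxn-2 and C40A11.2, at 0.058 to 0.068 against 0.24 for its own profile. For hsp-25 they were Y23H5B.8, the elongation factor gene eef-1A.2, atic-1, glb-16 and F13E6.1, at 0.018 to 0.037 against 0.14. The profile of sip-1 was nearly flat, at 0.035, and the nearest were npax-3, fbxb-55, K08C7.4, sacy-1 and sod-1, at 0.014 to 0.023.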

How the data were processed

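Expression was measured on the Affymetrix C. elegans Genome Array from 50 ng of total RNA with an integrity number above 7, of which 15 µg of labelled product was hybridised. The authors deposited log2 expression values normalised with RMA, per the series' design text and the submitters' processing notes; its version was not given in the sources used here, and the log base was taken from the values (0.47 to 12.53). Of 22625 probe sets, 77 manufacturer controls were left out of the tests. Probe sets were named through the platform annotation and RefSeq (WBcel235, names and neighbours alone): 20766 named 1 gene. In the rank product, programmed in Python 3.11.15 with numpy 2.4.6, the 9 differences between a tyrosol and a control array were each ranked across 22548 probe sets, with a null from 100 within-array permutations. Limma 3.58.1 in R 4.3.3 (lmFit, eBayes, two-sided, Benjamini-Hochberg over all probe sets) gave differences, SE, intervals and adjusted p. Both were also run on simulated data with independent noise on each array. Those data held neither an array that stood apart nor a correlation between same-numbered arrays, so they do not test the methods under these conditions. The number of arrays limits precision: the median SE of a difference was 0.12. Deviations of same-numbered arrays from their group means correlated at 0.11, 0.37 and 0.26, but tyrosol replicate 1 correlated more with control replicate 3 (0.28). A pairing by replicate number was thus read from these same data. The main rank product and limma did not use it, and it entered only as an alternative. The members and lists were chosen with earlier results of these data known. Genes named are all members, the 2 list genes of largest difference in each chaperone list, hsf-1, daf-16, hsp-70, daf-21 and the 5 genes nearest in profile. Outside this rule, the F44E5.4 couple, hsp-17, hsp-16.20, hsp-16.21 and the single tissue markers named were chosen after their values were seen; 1 list name matched no gene. Alternatives covered the test, the block, single arrays, scaling, dim probe sets, the choice of probe set and the random seed. No sequences or coordinates are printed.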

Additional observations from a re-analysis of the deposited data

How the results depend on the processing

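Over 109 combinations of a member and an alternative, 104 kept their direction and their side of the threshold. Alternatives that change the test, the pairing or the seed leave the difference itself as it is. So do the filters and the averaging for a gene with a single probe set. There the direction could not change, nor could it by leaving out arrays for the 5 members whose groups did not overlap. The rank product over same-numbered pairs (replicate block) and averaging the probe sets of each gene each called 1 member, hsp-16.2 (false discovery rates 0.035 over pairs and 0.047 with averaged probe sets, over 17118 features). The replicate block in limma called 0 members. The difference of sip-1 was above 0 without tyrosol replicate 3 (0.0044), without control replicate 1 (0.016) and after a further quantile normalisation (0.050), within -0.037 to 0.016 over the single arrays left out. Leaving out single arrays left 0 members called (0 to 0) and gave a median difference of 0.18 to 0.29; without probe sets of the suffixes for shared probes it was 0.43, over 5 genes. With all arrays 215 probe sets were called, and 235 over same-numbered pairs. Limma called 76, and 163 with the replicate block. Without single arrays the rank product called 101 to 213, the lowest without tyrosol replicate 3, with 111 and 137 without tyrosol replicates 1 and 2. An alternative chosen after seeing the data, without both replicate 2 arrays, called 103 and 0 members. The weak signal of hsp-12.6 left it out of the brighter 6 of 7 members. The causes of these shifts were not tested.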
